A study of Homo sapiens with 9 samples.

Results

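The genes described here are 28 genes of cholesterol synthesis and of the sterol response that switches it on, taken by symbol from the 58219 genes counted in each library. They comprise 20 enzymes that lead from acetyl-CoA to cholesterol, 4 genes of the SREBP2 switch and 4 genes that move, store or export the finished sterol. No expression value entered the choice of members, but the set was proposed with earlier results of these data in view. All 28 passed the filter on low counts, with between 72 reads (CYP51A1) and 5853 reads (INSIG1) per library at the extremes.

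Poly(A) RNA was sequenced from PLC/PRF/5 cells, an established human liver cancer line, in 9 samples that stably carried added YES. YES is a Src-family tyrosine kinase encoded by YES1. In 4 samples the introduced kinase was wild type (WT). In the other 5 it was the T348I form, altered at the so-called gatekeeper residue that guards the ATP pocket, a kind of change known for weakening dasatinib binding. Every sample, WT or T348I, received 100 nM dasatinib, a drug that blocks ABL and Src-family kinases, and no untreated cells were analysed here. The sample names spell the drug in 2 ways, and each spelling is numbered from 1. The dasatinib name set holds 3 WT and 3 T348I samples, and the Dasa name set holds 1 WT and 2 T348I samples. The labels do not say what the spelling marks, nor whether samples came from separate cultures or clones, so the p-values here measure only sample-to-sample spread, part or all of which may be technical.

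The libraries held 10381142 to 15799059 reads assigned to genes. Mitochondrial transcripts made up 7.38% to 9.44% of these reads in the 6 samples of the dasatinib set and 15.25% to 17.01% in the 3 of the Dasa set. YES1 was counted at 341 to 368 CPM (reads of a gene scaled to a common library total) in the 4 WT samples, at 553 to 605 in the T348I dasatinib samples and at 974 and 1032 in the T348I Dasa samples. Every T348I library thus lay above every WT library for YES1, by 0.94 on the log2 scale (SE 0.0872, edgeR adjusted p = 4.84e-08), and the counts do not separate the introduced from the resident transcript. Of 10 hepatocyte markers, 9 averaged at least 1 CPM, the exception being TTR, and their summed level ran from 5502 to 6258 CPM in WT and from 3737 to 5615 CPM in T348I. Summed CPM of the stromal, immune and endothelial lists stayed at or below 10.4 in every library, with all 5 immune markers under 1 CPM.

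Cholesterol is built from acetyl-CoA through mevalonate, isoprenoid diphosphates, squalene and lanosterol. The transcription factor SREBP2, the product of SREBF2, sits in the endoplasmic reticulum bound to its escort SCAP, and INSIG proteins hold that complex there while sterol is plentiful. When sterol runs low, SCAP carries SREBP2 to the Golgi, where it is cut, and the released part enters the nucleus and binds sterol regulatory elements, typically beside NF-Y sites and Sp1 sites. Liver cells are a main site of this synthesis and of the export of cholesterol in lipoproteins and bile.

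The promoters of 5 members are shown because these genes hold the switch itself (SREBF2), its most sterol-sensitive inhibitor (INSIG1) and enzymes of the early, ring-closing and late steps whose fold depended on the name set (HMGCS1, LSS and MSMO1). RefSeq promoter windows (GRCh38.p14, 250 bases before to 50 after a start site) matched 25 of the 28 members, with 33 windows in all. ACAT2, FDFT1 and SQLE had no match. The stretches are written 5′ to 3′ on the strand of the gene and hold the bases before the start that lie in no annotated exon of a protein-coding gene. Capitals mark TCACCCCAC, a core of the sterol regulatory element, the CCAAT box bound by NF-Y (ATTGG on the other strand) and the GC box GGGCGG bound by Sp1 (CCGCCC on the other strand). The stretches lie upstream of SREBF2 at chr22:41832855-41833078 (+), of INSIG1 at chr7:155297628-155297775 (+), of HMGCS1 at chr5:43313513-43313662 (−), of LSS at chr21:46228825-46229024 (−) and of MSMO1 at chr4:165327419-165327622 (+).
SREBF2: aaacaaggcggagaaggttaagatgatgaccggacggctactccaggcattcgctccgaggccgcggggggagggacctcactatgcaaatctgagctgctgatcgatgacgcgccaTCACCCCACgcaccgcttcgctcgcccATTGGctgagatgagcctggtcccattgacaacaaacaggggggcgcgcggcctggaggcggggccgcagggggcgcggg
INSIG1: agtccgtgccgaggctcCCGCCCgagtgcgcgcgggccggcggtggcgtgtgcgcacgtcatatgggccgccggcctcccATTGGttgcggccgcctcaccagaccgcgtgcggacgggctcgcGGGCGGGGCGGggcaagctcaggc
HMGCS1: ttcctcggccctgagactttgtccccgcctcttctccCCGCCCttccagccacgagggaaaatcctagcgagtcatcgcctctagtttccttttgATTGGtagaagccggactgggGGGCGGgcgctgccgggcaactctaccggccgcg
LSS: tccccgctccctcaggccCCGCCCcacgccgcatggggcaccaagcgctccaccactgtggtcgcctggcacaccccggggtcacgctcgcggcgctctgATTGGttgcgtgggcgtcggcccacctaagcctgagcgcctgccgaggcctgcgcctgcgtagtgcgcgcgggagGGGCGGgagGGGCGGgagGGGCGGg
MSMO1: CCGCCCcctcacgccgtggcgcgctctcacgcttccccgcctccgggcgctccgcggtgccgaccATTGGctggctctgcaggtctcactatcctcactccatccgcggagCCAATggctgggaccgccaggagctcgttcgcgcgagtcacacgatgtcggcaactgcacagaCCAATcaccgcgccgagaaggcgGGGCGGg

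SREBF2 was the only member with a match to TCACCCCAC, which begins 133 bases before its start, with a CCAAT box beginning 106 bases before it. That motif was found in 3.03% of the 33 member windows and in 0.43% of all 35116 windows of the table, on either strand. The wider TCACNCCAC, which includes it, gave no further member window (3.03%, against 1.13% of all windows), and its inner part CACNCCAC was found in windows of ABCA1, IDI1, INSIG1, SC5D and SREBF2 (18.2%, against 5.87%). A CCAAT box stood in 60.6% of member windows, from 18 genes, against 34.6% of all windows and 35.1% of the windows of genes tested here. A GC box stood in 87.9%, from 23 genes, against 45.0% and 66.2%. Both were found together in 19 member windows (57.6%), against 14.4% of all windows and 22.9% of those of tested genes. MSMO1 has 3 CCAAT boxes within its printed stretch, INSIG1 and LSS have 1 each beside several GC boxes, and HMGCS1 has 1 beside a pair of GC boxes. These are matches of letters, and no binding was measured.

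Cells with T348I held less RNA of most of the set than cells with WT YES. Of the 28 members, 18 fell and 2 rose (edgeR quasi-likelihood test with the name set in the model, Benjamini-Hochberg adjusted p under 0.05 over 14617 genes), while 21.8% of all genes tested fell and 20.7% rose (42.5% in either direction). The members' median log2 fold was -0.18, against -0.01 over all genes tested. Without the name set in the model, 3 members fell (MVK, TM7SF2 and LBR) and 1 rose (NPC1). Among the 20 enzymes, 13 fell, 1 rose and 6 did not pass the test, with a median of -0.20. The genes with the largest falls were INSIG1 (-0.73), MVK (-0.71), LSS (-0.55) and TM7SF2 (-0.49), and NPC1, which sends cholesterol out of lysosomes, rose most (0.80). In 17 of the 28 every T348I sample lay below every WT sample within each name set, as 19.7% of all genes did. NPC1 was the single member to lie above in both sets, where 18.8% of all genes did. In bulk RNA, fewer cells that express a gene and less RNA per cell cannot be told apart.

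**Figure D1:**
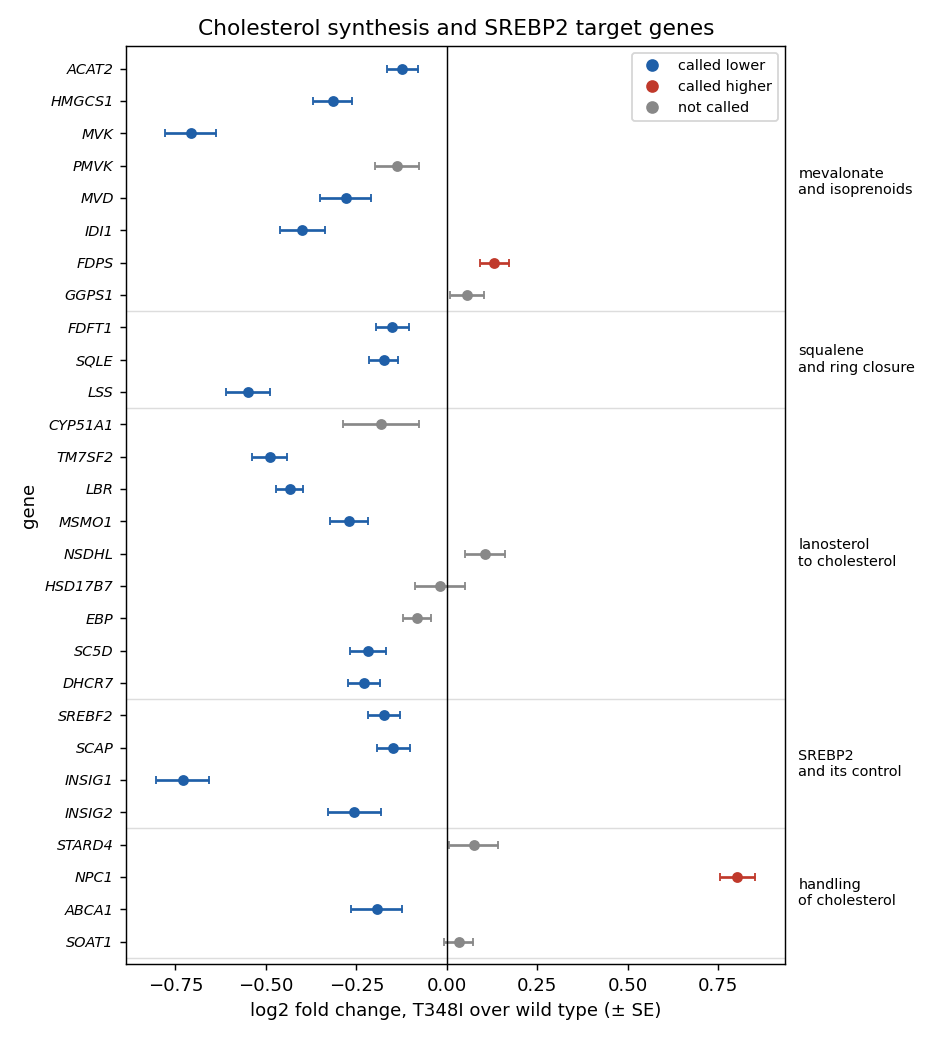
Fitted log2 fold of T348I over WT for the 28 genes, ordered by pathway step, with bars of 1 standard error and colours for genes called lower, called higher or not called. The 4 genes of the SREBP2 switch and the 3 of squalene and ring closure all lie below 0, and NPC1 stands alone at 0.80.

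The first steps join acetyl-CoA units into mevalonate and turn it into the isoprenoid building blocks, and 5 of their 8 genes fell in T348I. ACAT2, the cytosolic thiolase that makes acetoacetyl-CoA, was counted at 161, 178 and 166 CPM in WT dasatinib, 103 in WT Dasa, 157, 162 and 161 in T348I dasatinib and 85.9 and 86.3 in T348I Dasa. These groups overlapped within the dasatinib set, and the fall was small (log2 fold -0.12, SE 0.0425, edgeR adjusted p = 0.0257). It lost its call without WT Dasa 1 (-0.06) and also without WT dasatinib 2 (-0.10), T348I dasatinib 1 (-0.12), T348I Dasa 1 (-0.11) or T348I Dasa 2 (-0.11). HMGCS1, the HMG-CoA synthase of the cytosol, was counted at 280.5, 272 and 272 CPM in WT dasatinib and 201 in WT Dasa, against 237, 241 and 232 in T348I dasatinib and 127 and 148 in T348I Dasa. T348I lay below WT in both sets, at a log2 fold of -0.32 (SE 0.0531, edgeR adjusted p = 8.26e-05), which became -0.21 without WT Dasa 1.

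MVK, mevalonate kinase, showed the second largest fall of the set with all samples, and the largest (log2 fold -0.58) without WT Dasa 1. Its level was 58.0, 57.7 and 54.8 CPM in WT dasatinib and 41.2 in WT Dasa, against 34.3, 41.0 and 37.5 in T348I dasatinib and 19.7 and 20.6 in T348I Dasa. All 5 T348I samples lay below all 4 WT samples, T348I dasatinib 2 only just below WT Dasa 1, with means of 30.6 ± 9.86 (SD, n = 5) and 52.9 ± 7.92 CPM (SD, n = 4), and the log2 fold was -0.71 (SE 0.0704, edgeR adjusted p = 1.39e-07). The next kinase, PMVK, averaged 23.7 ± 3.36 CPM in WT and 20.6 ± 3.2 in T348I and did not pass the test (log2 fold -0.14, edgeR adjusted p = 0.0828). Means ± SD here and below pool the name sets, which are mixed unevenly between the groups, while the folds hold the name set in the model. MVD, which decarboxylates mevalonate diphosphate, was counted at 42.4, 44.3 and 46.0 CPM in WT dasatinib, 35.2 in WT Dasa, 39.0, 39.8 and 41.4 in T348I dasatinib and 22.3 and 22.9 in T348I Dasa. T348I was lower in both sets, narrowly so in the dasatinib set, and the log2 fold of -0.28 (SE 0.0704, edgeR adjusted p = 0.00332) became -0.14 without WT Dasa 1 and lost its call (adjusted p = 0.0569).

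IDI1, the isopentenyl diphosphate isomerase, was among the most abundant members. It was counted at 334, 337 and 331 CPM in WT dasatinib and 168 in WT Dasa, against 269, 293 and 272 in T348I dasatinib and 97.1 and 104 in T348I Dasa. T348I lay below WT within each set, while the WT Dasa sample lay below all 3 T348I dasatinib samples. The log2 fold was -0.40 (SE 0.0616, edgeR adjusted p = 3.23e-05), and -0.26 without WT Dasa 1. FDPS, which makes farnesyl diphosphate, was the one enzyme that rose. It was counted at 146, 145 and 154 CPM in WT dasatinib and 97.5 in WT Dasa, against 163, 169.5 and 171 in T348I dasatinib and 95.5 and 100.3 in T348I Dasa. The groups were apart in the dasatinib set and overlapped in the Dasa set, and the log2 fold of 0.13 (SE 0.0411, edgeR adjusted p = 0.0141) lost its call without WT dasatinib 2 (0.11), T348I dasatinib 2 (0.12) or T348I dasatinib 3 (0.11). Reads of FDPS are uncertain because the annotation names 8 pseudogenes of it. GGPS1, which makes geranylgeranyl diphosphate, averaged 35.7 ± 3.42 CPM in WT and 36.2 ± 3.2 in T348I and did not pass the test (0.06, edgeR adjusted p = 0.366). TBCE on the same strand overlaps 37.3% of its exon length.

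The 3 genes that commit farnesyl units to squalene and close the first sterol ring all fell. FDFT1, squalene synthase, was counted at 72.2, 74.7 and 74.8 CPM in WT dasatinib, 42.7 in WT Dasa, 69.9, 68.7 and 69.0 in T348I dasatinib and 33.6 and 35.4 in T348I Dasa. Its groups did not overlap within either set, but the gap in the dasatinib set was narrow, and the log2 fold of -0.15 (SE 0.0456, edgeR adjusted p = 0.012) was -0.09 and not called without WT Dasa 1. SQLE, the squalene epoxidase and a control point of the late pathway, was counted at 183, 175 and 169 CPM in WT dasatinib, 109 in WT Dasa, 156, 165 and 158 in T348I dasatinib and 88.6 and 93.9 in T348I Dasa. It lay lower in T348I within each set (log2 fold -0.17, SE 0.0398, edgeR adjusted p = 0.00152). LSS, lanosterol synthase, was counted at 197, 178 and 199.6 CPM in WT dasatinib and 138 in WT Dasa, against 143, 140.4 and 147 in T348I dasatinib and 73.4 and 78.2 in T348I Dasa. The groups were well apart within each set, and LSS fell to 0.683 times its WT level (log2 fold -0.55, SE 0.0609, edgeR adjusted p = 5.73e-07).

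From lanosterol onward, 5 of 9 genes fell and 4 did not pass the test. The steepest falls were in the enzymes that reduce the sterol's 14-15 double bond, for which cells have a pair of genes. TM7SF2 was counted at 66.8, 68.0 and 73.2 CPM in WT dasatinib, 51.5 in WT Dasa, 51.0, 51.8 and 49.9 in T348I dasatinib and 32.8 and 35.1 in T348I Dasa. The other, LBR, whose product also anchors chromatin at the nuclear envelope, was counted at 379, 387 and 377 CPM in WT dasatinib, 341 in WT Dasa, 284, 299 and 287 in T348I dasatinib and 231 and 243 in T348I Dasa. LBR was below in every T348I sample against every WT sample, and TM7SF2 was so within each set. Their log2 folds were -0.49 for TM7SF2 (SE 0.0476, edgeR adjusted p = 1.01e-07) and -0.43 for LBR (SE 0.0372, edgeR adjusted p = 1.8e-08).

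MSMO1, the sterol C4-methyl oxidase, was counted at 136, 135 and 137 CPM in WT dasatinib, 76.9 in WT Dasa, 119, 123 and 122 in T348I dasatinib and 53.2 and 51.1 in T348I Dasa. SC5D, the lathosterol desaturase, was counted at 141, 150.5 and 142 CPM in WT dasatinib, 94.2 in WT Dasa, 126, 137 and 130.1 in T348I dasatinib and 68.8 and 71.9 in T348I Dasa. In both genes the T348I samples were lower within each set. MSMO1 fell by 0.27 on the log2 scale (SE 0.0534, edgeR adjusted p = 0.000414) and SC5D by a log2 fold of -0.22 (SE 0.0487, edgeR adjusted p = 0.00127); without WT Dasa 1 the values were -0.16 and -0.13. DHCR7, the final reductase of the Kandutsch-Russell branch, was counted at 224, 230.2 and 229.8 CPM in WT dasatinib, 132 in WT Dasa, 199, 202 and 207 in T348I dasatinib and 95.9 and 108 in T348I Dasa. It was lower in T348I within each set, with a log2 fold of -0.23 (SE 0.0433, edgeR adjusted p = 0.000275).

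The 4 late genes that did not pass the test act in C14 demethylation, C4 demethylation and double-bond shifting. CYP51A1, the lanosterol 14-demethylase, averaged 8.69 ± 1.06 CPM in WT and 7.36 ± 1.57 in T348I (log2 fold -0.18, edgeR adjusted p = 0.179). Its value is uncertain, since same-strand annotations overlap 79.4% of its exon length and 3 pseudogenes carry its name. NSDHL averaged 28.9 ± 4.57 and 29.5 ± 6.2 CPM (0.10, edgeR adjusted p = 0.135), and HSD17B7, which has 2 named pseudogenes, 25.7 ± 6.11 and 23.7 ± 5.58 CPM (-0.02, edgeR adjusted p = 0.855). By set, HSD17B7 was at 28.4 CPM in WT dasatinib, 27.8 in T348I dasatinib, 17.6 in WT Dasa and 17.7 in T348I Dasa. EBP, the isomerase of the ring double bond, averaged 79.5 ± 10.6 CPM in WT and 72.0 ± 12.2 in T348I (-0.08, edgeR adjusted p = 0.0895). Thus genes of the same C4-demethylating complex were called differently, MSMO1 falling while NSDHL and HSD17B7 did not pass the test; the difference between these genes was not tested.

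Added together, the 20 enzymes came to 2634, 2653 and 2638 CPM in WT dasatinib, 1793 in WT Dasa, 2258, 2345 and 2299 in T348I dasatinib and 1282 and 1351 in T348I Dasa. The T348I mean was 0.871 times the WT mean in the dasatinib set and 0.734 times the WT sample in the Dasa set. By step, these ratios were 0.902 and 0.739 for mevalonate and isoprenoids, 0.843 and 0.695 for squalene and ring closure, and 0.851 and 0.744 for lanosterol to cholesterol. Each step's sum was thus lower in T348I in both sets, and the gap was wider in the Dasa set.

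All 4 genes of the SREBP2 switch fell in T348I. SREBF2 itself was counted at 167, 168 and 174 CPM in WT dasatinib, 166 in WT Dasa, 164, 149 and 161 in T348I dasatinib and 128 and 137 in T348I Dasa. Every T348I sample lay below every WT sample, though T348I dasatinib 1 came within a few CPM of WT, and the log2 fold was -0.17 (SE 0.0451, edgeR adjusted p = 0.00411), or -0.10 without WT Dasa 1. SCAP, the escort, was counted at 76.4, 71.9 and 79.3 CPM in WT dasatinib, 80.9 in WT Dasa, 64.1, 73.0 and 66.9 in T348I dasatinib and 72.0 and 75.6 in T348I Dasa. Its groups overlapped in the dasatinib set, and the log2 fold of -0.15 (SE 0.0456, edgeR adjusted p = 0.0131) lost its call without WT dasatinib 3 (-0.13) or T348I dasatinib 1 (-0.12).

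INSIG1, the retention protein that is itself a target of SREBP2, had the largest fall of the 28. Its level was 401, 408 and 387 CPM in WT dasatinib and 149 in WT Dasa, against 257, 284 and 263 in T348I dasatinib and 61.9 and 71.6 in T348I Dasa. T348I lay far below WT within each set, and INSIG1 fell to 0.603 times its WT level (log2 fold -0.73, SE 0.0733, edgeR adjusted p = 1.58e-07). Without WT Dasa 1 its log2 fold was -0.56, and MVK, at -0.58, had the largest fall. INSIG2, the retention protein that is less sterol-dependent, was counted at 23.3, 19.9 and 21.1 CPM in WT dasatinib, 15.8 in WT Dasa, 17.9, 19.4 and 19.1 in T348I dasatinib and 11.9 and 11.4 in T348I Dasa. It was lower in T348I within each set by a small margin (log2 fold -0.26, SE 0.0728, edgeR adjusted p = 0.00804), and it was -0.18 and not called without WT Dasa 1.

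The 4 genes that handle finished cholesterol did not move together. NPC1 was counted at 139, 135 and 141 CPM in WT dasatinib and 138 in WT Dasa, against 233, 223 and 227 in T348I dasatinib and 262 and 291 in T348I Dasa. The 4 WT samples spanned a few CPM and every T348I sample lay far above them, so that NPC1 rose to 1.74 times its WT level (log2 fold 0.80, SE 0.0493, edgeR adjusted p = 1.3e-10). ABCA1, the transporter that exports cholesterol to apolipoprotein A-I, was counted at 19.99, 22.3 and 20.5 CPM in WT dasatinib, 35.7 in WT Dasa, 21.7, 18.0 and 19.5 in T348I dasatinib and 27.2 and 28.2 in T348I Dasa. Its groups overlapped in the dasatinib set, and its call (log2 fold -0.19, SE 0.0704, edgeR adjusted p = 0.0327) was lost without WT Dasa 1 (-0.09) and also without WT dasatinib 2 (-0.18), T348I dasatinib 2 (-0.17), T348I Dasa 1 (-0.16) or T348I Dasa 2 (-0.18). STARD4, a soluble sterol carrier, averaged 47.9 ± 8.73 CPM in WT and 47.6 ± 14.5 in T348I (0.07, edgeR adjusted p = 0.399). SOAT1, which esterifies cholesterol for storage, averaged 212 ± 16.2 and 212 ± 19.7 CPM (0.03, edgeR adjusted p = 0.536).

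Per kilobase of annotated exon, and as a mean over all 9 samples, the members ran from INSIG1 at 69.5 CPM per kb, LBR at 59.7, IDI1 at 56.4, HMGCS1 at 47.5 and DHCR7 at 43.5 down to INSIG2 at 4.49, CYP51A1 at 2.22 and ABCA1 at 2.09. The median over 14585 tested genes with an exon length was 4.97. On this scale MVK (6.25) and MVD (7.85) lay below the other mevalonate genes PMVK (17.2) and HMGCS1. The order depended on the name set. INSIG1 averaged 109.2 CPM per kb in WT dasatinib and 73.4 in T348I dasatinib, first of the 28 in both, but stood at 40.8 in WT Dasa, behind LBR (64.8) and HMGCS1 (42.8), and at 18.3 in T348I Dasa, where 10 members lay above it and LBR (45.0) led. Exon length counts every annotated exon, so genes with many long isoforms read low on this scale. The place of CYP51A1 is uncertain, since same-strand annotations overlap 79.4% of its exon length.

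The folds within each name set came from an edgeR model with an interaction term, fitted to all 9 samples. Within the dasatinib set it gave 14 members lower and 2 higher, against 17.3% and 17.6% of all genes tested. Within the Dasa set it gave 17 lower and 1 higher, against 19.1% and 18.8%. The members' median log2 folds were -0.13 and -0.35. The Dasa contrast has 1 WT sample, which is taken to vary like the other groups. The difference between the 2 folds, tested as an interaction over all genes, was called in 9 of the 28 members, against 7.33% of all genes tested (4.19% with a fold further down in Dasa and 3.14% further up). Of the 28 differences, 24 were below 0, and the median difference over all genes tested was -0.006. All 28 share the 1 WT sample of the Dasa set, so they do not replicate one another.

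The largest of these differences was that of INSIG1, whose log2 fold was -0.57 in the dasatinib set and -1.16 in the Dasa set (difference -0.59, SE 0.082, edgeR adjusted p = 3.14e-06). IDI1 went from -0.26 to -0.74 (difference -0.48, edgeR adjusted p = 1.17e-05) and LSS from -0.42 to -0.86 (difference -0.44, adjusted p = 0.000162). MSMO1 went from -0.16 to -0.56 (difference -0.39, adjusted p = 0.000745) and HMGCS1 from -0.21 to -0.55 (difference -0.34, adjusted p = 0.002). These 5 were joined by MVD, from -0.14 to -0.64 (difference -0.50, adjusted p = 0.00251), MVK, from -0.58 to -1.03 (difference -0.45, adjusted p = 0.00961), and SC5D, from -0.13 to -0.42 (difference -0.29, adjusted p = 0.0185). All 8 thus lay further below WT in the Dasa set, across the mevalonate, ring-closing and late steps and the switch. NPC1 differed the other way, at 0.72 and 0.998 (difference 0.28, SE 0.0727, edgeR adjusted p = 0.0107). Leaving out T348I Dasa 1 ended the call of MVK (-0.42) and SC5D (-0.26), T348I dasatinib 2 that of SC5D (-0.25) and T348I Dasa 2 that of NPC1 (0.20). DESeq2 called 7 of these 9, without MVK (-0.44, adjusted p = 0.0725) and SC5D (-0.28, adjusted p = 0.0873). The same difference was 0.71 for YES1 (edgeR adjusted p = 2.305e-09), whose log2 fold was 0.73 in the dasatinib set and 1.45 in the Dasa set. Its part in the members' differences was not tested.

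Between the name sets themselves, with group held in the model, 25 members were lower in Dasa and 2 were higher, against 29.0% and 29.7% of all genes tested. All 20 enzymes were lower, with a median log2 difference of -0.68, and the median over all genes was -0.01. INSIG1 was lower by the most (-1.76, SE 0.0852, edgeR adjusted p = 4.67e-12), followed by IDI1 (-1.27) and MSMO1 (-1.06), while LBR (-0.24) and GGPS1 (-0.25) were the least lowered enzymes. The summed enzymes of the WT Dasa sample were 0.679 times the WT dasatinib mean, and in T348I the Dasa mean was 0.572 times the dasatinib mean.

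The switch genes differed less evenly between the sets. INSIG2 was lower in Dasa (-0.59, edgeR adjusted p = 3.78e-06), SREBF2 was lower by a small amount (-0.16, edgeR adjusted p = 0.00646) and SCAP, at 0.10 (edgeR adjusted p = 0.0734), was not called. SREBF2 lost this call without T348I Dasa 1 (-0.10) and was at -0.25 without WT Dasa 1. Among the handling genes, ABCA1 was higher in Dasa (0.62, edgeR adjusted p = 5.94e-07) and so was NPC1 (0.18, edgeR adjusted p = 0.00441), while STARD4 (-0.72, edgeR adjusted p = 1.14e-07) and SOAT1 (-0.21, edgeR adjusted p = 0.00032) were lower. NPC1 was at 0.28 without WT Dasa 1 and at 0.12 without T348I Dasa 2. The share of mitochondrial reads given above also differed between the sets without overlap, and its part in these differences was not tested.

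**Figure D2:**
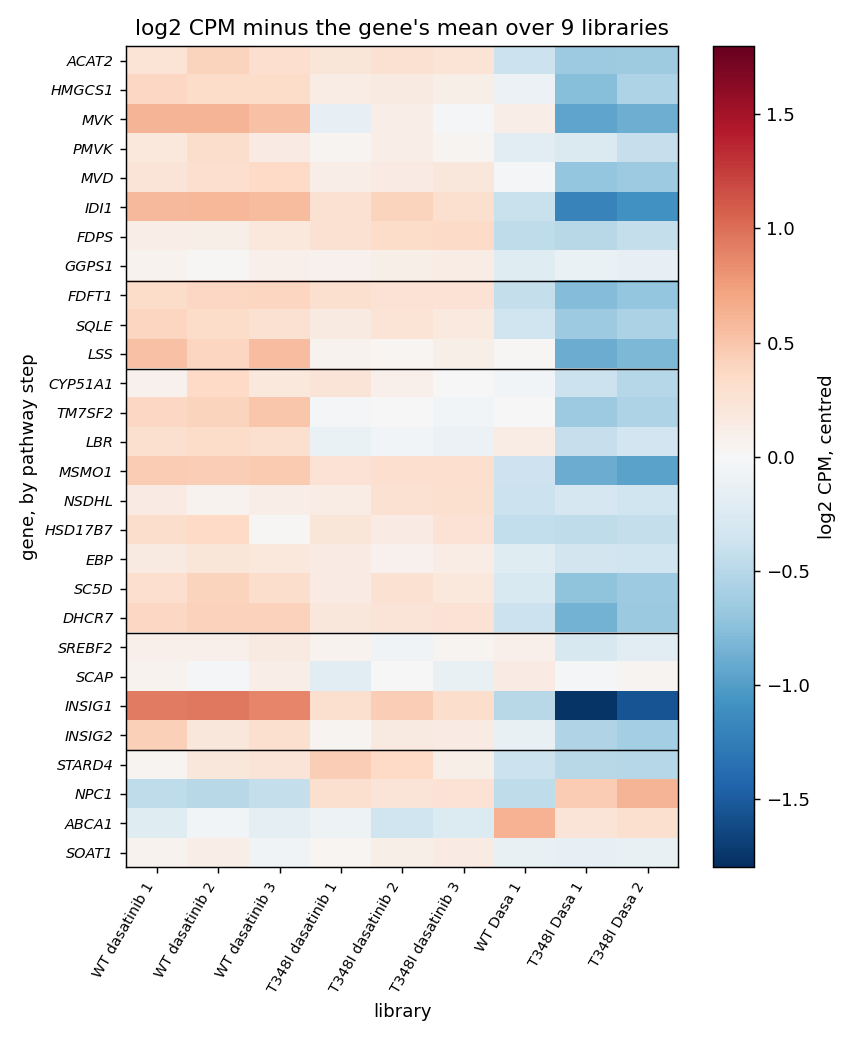
Log2 CPM of each of the 28 genes, centred on its mean over the 9 libraries, with genes in rows by pathway step and libraries in columns by name set and group. Values run from -1.765 to 0.956, the Dasa columns average below the dasatinib columns for all 20 enzymes, and NPC1 is high only in the T348I columns.

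In the rest of sterol metabolism, 59 further genes of which 52 were tested, 11 genes rose (21.2%) and 14 fell (26.9%), with a median log2 fold of -0.03. These shares lie near the 20.7% and 21.8% of all genes tested, and the counts by subgroup below are from 1 to 17 genes, so they describe single genes and set no subgroup apart. SOAT2, ABCG1, ABCG5, ABCG8, CH25H, CYP46A1 and CYP7B1 were too low to test. Of 17 tested genes of trafficking, storage and efflux, 5 rose and 6 fell. NCEH1, which hydrolyses cholesterol esters, rose beside NPC1, from 286 ± 16.0 to 451 ± 43.6 CPM (log2 fold 0.64, edgeR adjusted p = 2.2e-08), and GRAMD1A, which carries cholesterol from the plasma membrane to the endoplasmic reticulum, rose by 0.47 (edgeR adjusted p = 2.09e-07). LRP8, a lipoprotein receptor, fell by 0.41 on the log2 scale (edgeR adjusted p = 1.51e-06). Within each name set T348I lay above WT for NCEH1 and GRAMD1A, as for 18.8% of all genes tested. LRP8 lay below in each, as 19.7% did. These 3 genes were named for their small p, so this separation adds no support.

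Among 11 genes of SREBP processing and of sterol-regulated degradation, 2 rose and 3 fell. RNF145, a ubiquitin ligase of the sterol response, rose (0.43, edgeR adjusted p = 1.07e-06), whereas ERLIN2 (-0.23, edgeR adjusted p = 3.7e-05), which acts in degradation at the endoplasmic reticulum, fell. Of 4 genes of acetyl-CoA supply, 3 fell and 1 rose. Those that fell were SLC25A1, the mitochondrial citrate carrier (-0.36, edgeR adjusted p = 5.64e-06), ACAT1, the mitochondrial thiolase (-0.19, edgeR adjusted p = 0.0004), and ACSS2, which activates acetate (-0.25, edgeR adjusted p = 0.000604).

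Of 12 genes of the isoprenoid branch, 2 rose and 2 fell. PDSS1 rose (0.30, edgeR adjusted p = 0.00104) while PDSS2 fell (-0.29, edgeR adjusted p = 0.000266), although their products form a single enzyme of coenzyme Q synthesis, and RABGGTB, a subunit of the enzyme that prenylates Rab proteins, rose (0.17, edgeR adjusted p = 0.00102). Among the 7 genes of liver X receptors and their targets, FASN, the fatty acid synthase, was the single one to pass the test (0.27, edgeR adjusted p = 6.69e-05), rising from 448 ± 27.6 to 545 ± 29.1 CPM. Within each name set every T348I sample lay above WT for FASN, as for 18.8% of all genes tested. SCD (-0.11) and SREBF1 (0.05) of the same group were not called.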

How the data were processed

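The deposited values are raw read counts per gene in 9 libraries. The authors used CASAVA 1.8.2, Trimmomatic 0.35, STAR 2.5.1b and GRCh38 as the genome, per the submitters' processing notes. Which gene annotation they used is not given in the sources used here. The authors' count tables each hold unstranded counts and counts for either strand, and the column for the reverse strand was used because the kit marks strand per the labels and that column held most reads. Rows that name no gene (22.2% to 29.8% of reads) were left out. Of 58219 identifiers, 57392 matched a symbol, and 55050 had the version of GENCODE release 29, from which exon lengths, positions and overlaps were read; 24 of the 28 members had the same version, the others being IDI1, CYP51A1, HSD17B7 and SCAP. Counts were analysed in R 4.3.3 with edgeR 4.0.16 (filterByExpr, TMM, quasi-likelihood F-test, name set and group in the model), adjusted by Benjamini-Hochberg over all genes tested at a threshold of 0.05. CPM was computed from the same scaled libraries, and each standard error is the log2 fold divided by the square root of its F statistic. An interaction term gave the folds within each name set. Counting error enters these fits through their variance function, which is scaled by the spread between samples.

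On simulated counts with 14456 genes tested, the group test found 50% of 50 genes changed 1.2-fold, 74% of those changed 1.5-fold, 96% of those changed 2-fold and 94% of those changed 4-fold, with 8 false among 165 calls. No 2 libraries of a group were alike within sampling noise (chi-square per gene 1.49 to 3.09). Same-numbered WT and T348I samples of the dasatinib set did not deviate together, though 3 samples per group cannot exclude pairing. The main fit did not pair samples by number. Alternatives were DESeq2 1.42.0, upper quartile scaling, no filter, unstranded counts, no name set term, a replicate block, the dasatinib set alone and leaving out each sample; the shorter motif CACNCCAC and the background of tested genes were chosen after seeing the data. Every member is accounted for, called members with each sample's value, and of the other sterol genes up to 3 called per group with the smallest p, of which 1 is not reported here. The members, the other sterol genes and the marker lists were chosen with earlier results of these data known.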

Additional observations from a re-analysis of the deposited data

Results flagged for a closer look

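Among the WT samples, WT Dasa 1 stood far below the other 3 for HMGCS1 (201 CPM), IDI1 (168), FDPS (97.5), FDFT1 (42.7), MSMO1 (76.9), EBP (63.7), DHCR7 (132) and INSIG1 (149), and far above them for ABCA1 (35.7). For SREBF2 the WT sample that stood apart was WT dasatinib 3, at 174 CPM. These are 10 of 56 groups of samples examined with Dixon's criterion, which flags about 1 in 20 groups of like samples by chance. That rate does not apply here, because the WT samples are 3 of the dasatinib set and 1 of the Dasa set. For the genes of these 9 values of WT Dasa 1, the T348I samples differed between the name sets in the same direction. Among the WT samples alone, with 1 in the Dasa set, a trait of this library and a difference between the name sets cannot be told apart.

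The fold of T348I over WT differed between the name sets (Dasa minus dasatinib, log2, tested as an interaction with edgeR) for HMGCS1 (-0.34), MVK (-0.45), MVD (-0.50), IDI1 (-0.48), LSS (-0.44), MSMO1 (-0.39), SC5D (-0.29), INSIG1 (-0.59) and NPC1 (0.28). All 9 differences rest on the 1 WT sample of the Dasa set.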

How the results depend on the processing

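Of the 18 members that fell, 18 stayed below 0 under all 16 alternatives, 3 (MVK, TM7SF2 and LBR) were called under every one, and 9 lost the call only without the name set term. NPC1 was called under all 16. Without that term 3 members fell and 1 rose, with a median of -0.25, and 6 other sterol genes rose and 3 fell; 1234 genes in all rose and 1116 fell. Leaving out 1 sample gave 13 to 18 members lower, 1 to 2 higher and a median from -0.21 to -0.13. DESeq2 called 16 lower, without ACAT2 and ABCA1, and the dasatinib set alone 13. The replicate block gave 16 lower and 2 higher, losing ACAT2 (-0.11, adjusted p = 0.0635) and ABCA1 (-0.18, adjusted p = 0.111); same-numbered samples' deviations correlated at -0.01, -0.08 and 0. CACNCCAC in place of TCACNCCAC gave 18.2% of member windows. Genes that were not called changed sign in HSD17B7 (-0.090 to 0.022 when 1 sample was left out), SOAT1 (-0.0015 to 0.061 likewise) and STARD4 (-0.013 without the name set term). Causes were not tested. In the simulation 50% of the genes changed 1.2-fold were found. That share does not carry over, since the simulation gave 165 calls, whereas 42.5% of all genes tested were called in these data.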
